A study of Mus musculus with 12 samples.

Results

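The heat shock and unfolded protein response genes described here are 36 protein-folding genes of the mouse, chosen by gene symbol from the 43346 genes of the deposited table. They fall into 11 cytosolic chaperones (Hspa1a, Hspa1b, Hspa8, Hsp90aa1, Hsp90ab1, Hsph1, Dnajb1, Dnajb5, Dnaja1, Hspb1 and Cryab), 15 chaperones and folding enzymes of the endoplasmic reticulum (ER; Hspa5, Hsp90b1, Hyou1, Calr, Canx, Pdia3, Pdia4, Pdia6, Dnajb9, Dnajb11, Dnajc3, Sdf2l1, Manf, Creld2 and Herpud1), 5 mitochondrial chaperones and proteases (Hspd1, Hspe1, Hspa9, Lonp1 and Clpp) and 5 sensors or transcription factors (Hsf1, Xbp1, Atf6, Ern1 and Eif2ak3). All 36 passed the filter on low counts, which left 22553 genes for testing. The rule for membership uses gene symbols and no measured value, though the 36 genes were chosen with earlier results of these data known.

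Unfolded protein in the cytosol frees the transcription factor HSF1, which binds heat shock elements and raises transcription of the HSP70, HSP40, HSP110 and small heat shock protein genes. In the ER, unfolded protein occupies the chaperone BiP (Hspa5) and activates the sensors IRE1 (Ern1), PERK (Eif2ak3) and ATF6, which act through XBP1, ATF4 and cleaved ATF6 on ER stress elements to raise chaperones, folding enzymes and degradation factors. Mitochondria have their own HSP60, HSP10 and HSP70 and the proteases LONP1 and CLPP, and complex I of the respiratory chain is assembled there. Neurons are known for a weak heat shock response beside high constitutive levels of HSC70 and HSP90.

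Brain RNA was compared between 3 groups of 4 libraries. Old_CP2 mice were 23 months old with the strain label C57BL/6;SJL-Tg, and from 9 months of age drank CP2, a small-molecule inhibitor of mitochondrial complex I, at 25 mg per kg per day in water with 0.1% polyethylene glycol (PEG). Old mice shared that age and that strain label and drank 0.1% PEG water from the same age. Young mice were 3 months old, untreated and of strain label C57BL/6. All 12 carry a wild type genotype label and titles that start with NTG, while the design text of the series speaks of APP/PS1 mice, and the 2 were not reconciled. Between Old and Young, age, strain label and vehicle differ together and cannot be told apart. Nothing in the labels ties each library to a mouse of its own, so p-values measure the spread between libraries.

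Libraries held 70548781 to 99449665 counts, and each came from a slice of brain with hippocampus and cortex. Markers of neurons, astrocytes and oligodendrocytes were present in every library, and no marker in any of the lists was at 0 in any library. Cell type markers moved with the groups too. The 6 astrocyte markers summed to 3718 to 4231 CPM in Old_CP2, 4166 to 4809 CPM in Old and 3276 to 3863 CPM in Young, with 6 of 6 above 0 and 2 called higher in Old against Young, and 5 of 6 below 0 and 0 called in Old_CP2 against Old (3 with an unadjusted p under 0.05). In Old against Young 2 of 6 microglia markers and 3 of 6 meningeal markers were called higher and 2 of 6 ependyma markers lower, and in Old_CP2 against Young 3, 2 and 2 of them in the same directions. Of the 6 oligodendrocyte markers 2 were called lower in Old_CP2 against Young. In Old_CP2 against Old 6 of 6 pericyte and smooth muscle markers were above 0, 4 with an unadjusted p under 0.05 and 0 called. In Old against Young 1 of those 6 was called lower. Of 8 neuron markers 1 was called higher and 1 lower in Old against Young, and 1 higher in Old_CP2 against Young. The part of these cell types in the results below was not tested. Markers of other brain parts moved with the groups (1 choroid plexus marker was called lower, 7 midbrain and hindbrain markers higher and 4 striatum markers lower in Old against Young). The 12 choroid plexus markers summed to 262 to 1482 CPM (counts scaled to library size, normalised for library composition) in Old_CP2, 303 to 1844 CPM in Old and 2073 to 3302 CPM in Young. The 8 midbrain and hindbrain markers summed to 23.4 to 77.2 CPM in Old_CP2, 31.5 to 92.3 CPM in Old and 3.70 to 7.71 CPM in Young. The 5 striatum markers summed to 100.6 to 142 CPM in Old_CP2, 107 to 141 CPM in Old and 182 to 304 CPM in Young. Red blood cell markers summed to 228 to 443 CPM in Old_CP2, 81.6 to 148 CPM in Old and 59.2 to 91.0 CPM in Young, with 2 of 5 called higher in Old_CP2 against Old and 5 of 5 in Old_CP2 against Young, and their part in the results was not tested. Differences in where the slices were taken and differences between the mice cannot be told apart for comparisons with Young.

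For 27 of the 36 genes at least 1 RefSeq promoter window was available (build GRCm38.p6, 250 bases before to 50 after a transcript start, 34 windows). Hspa8, Hsp90aa1, Hsp90ab1, Cryab, Hyou1, Manf, Hspa9, Hsf1 and Atf6 had none in the set of windows used and were not searched. The sites below are shown because they match the elements through which the factors named above are known to act. Their part in the variation between libraries described further on was not tested. The ER stress element, CCAAT and CCACG with 9 bases between them, was searched on both strands. It was found in 7 of 13 ER genes with a window and in 0 of the other 14 genes, while 0.137% of 27025 genes had it in a window of the same kind. The 36 genes were chosen as heat shock and unfolded protein response genes. A high share for this element or those below therefore describes the choice of genes and tests nothing. Each sequence reads 5′ to 3′ on the strand of its gene, and capitals mark the element, which stands in the reverse orientation in Calr, in Creld2 and in the second site of Hsp90b1.
Hspa5 (BiP), chr2:34772020-34772048, plus strand: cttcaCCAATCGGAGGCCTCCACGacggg
Hsp90b1 (GRP94), chr10:86705633-86705661, minus strand: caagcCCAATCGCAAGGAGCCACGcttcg
Hsp90b1, chr10:86705528-86705556, minus strand: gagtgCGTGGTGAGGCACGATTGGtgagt
Calr (calreticulin), chr8:84847070-84847098, minus strand: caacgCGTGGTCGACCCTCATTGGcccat
Canx (calnexin), chr11:50325795-50325823, minus strand: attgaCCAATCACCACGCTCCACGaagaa
Pdia6 (disulfide isomerase), chr12:17266486-17266514, plus strand: agagaCCAATGAAAGGCGGCCACGgcgtg
Dnajc3 (p58IPK), chr14:118937822-118937850, plus strand: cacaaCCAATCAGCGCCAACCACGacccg
Creld2 (ER folding factor), chr15:88819515-88819543, plus strand: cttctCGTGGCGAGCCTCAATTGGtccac

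The second ER stress element, ATTGG and CCACG with 1 base between them, was found in 2 of the 13 ER genes and in 0 of the other 14, against 0.0444% of all genes with a window. Neither site lay within a match of the first element. The heat shock element was GAA, TTC and GAA with 2 bases between the blocks, or its reverse complement. It was found in Hsph1, Hspd1 and Hspe1, against 0.662% of all genes. These were 1 of 7 cytosolic and 2 of 4 mitochondrial genes with a window. Hspa1a, Hspa1b, Dnajb1, Dnajb5, Dnaja1 and Hspb1 were searched and held no match. The pattern allowed no mismatch, so these windows may hold looser heat shock elements. Hspd1 and Hspe1 lie head to head and share the stretch, in which 2 matches overlap, and the first is in capitals below. In Hsph1 the match follows the RefSeq start, 15 bases after the nearer of its 2 starts. The Dnajb11 match of the second ER stress element also follows its RefSeq start, by 7 bases. The unfolded protein response element, TGACGTGG, was found in 0 of the 27 genes, against 0.714% of all genes. A match describes the letters of a window and is not a measured binding site.
Herpud1 (ER stress protein of degradation), chr8:94386369-94386395, plus strand: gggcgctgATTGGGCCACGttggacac
Dnajb11 (ERdj3), chr16:22857844-22857870, plus strand: cggcggcgATTGGCCCACGcctggctg
Hspe1 and Hspd1 (HSP10 and HSP60), chr1:55088051-55088079, strand of Hspe1: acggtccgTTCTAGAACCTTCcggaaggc
Hsph1 (HSP110), chr5:149636280-149636308, minus strand: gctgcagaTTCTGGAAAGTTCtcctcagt

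Transcript levels were compared between genes on the deposited RPKM scale, which scales counts to gene length and library size. The cytosolic HSP90 gene Hsp90ab1 was highest, with a median of 353 RPKM over the 12 libraries. It was followed by the inducible HSP90 gene Hsp90aa1 at 122 RPKM and the constitutive HSC70 gene Hspa8 at 113 RPKM, whose library values overlapped. The ER lectins Calr (77.3 RPKM) and Canx (66.7 RPKM), the ER HSP90 gene Hsp90b1 (63.4 RPKM), the small heat shock protein gene Cryab (52.3 RPKM) and Hspa5 (50.2 RPKM) came next, with overlapping library values between neighbours. At the low end stood the stress-inducible HSP70 genes Hspa1b (3.03 RPKM) and Hspa1a (2.82 RPKM), the small heat shock protein gene Hspb1 (2.06 RPKM) and the sensor gene Ern1 (1.502 RPKM), and the library values of each overlapped with those of the next. The constitutive member of the HSP70 family thus lay above the inducible ones in every library, at 82.1 RPKM or more for Hspa8 against at most 3.91 RPKM for Hspa1b. Levels are uncertain where reads can match other genes. Of all 101-base windows (the read length), 56.3% of Hspa1a, 49.7% of Hspa1b and 43.9% of Hspb1 also occur in other genes. The shares were 37.8% for Hsp90aa1 and 28.4% for Hspa8.

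**Figure D1:**
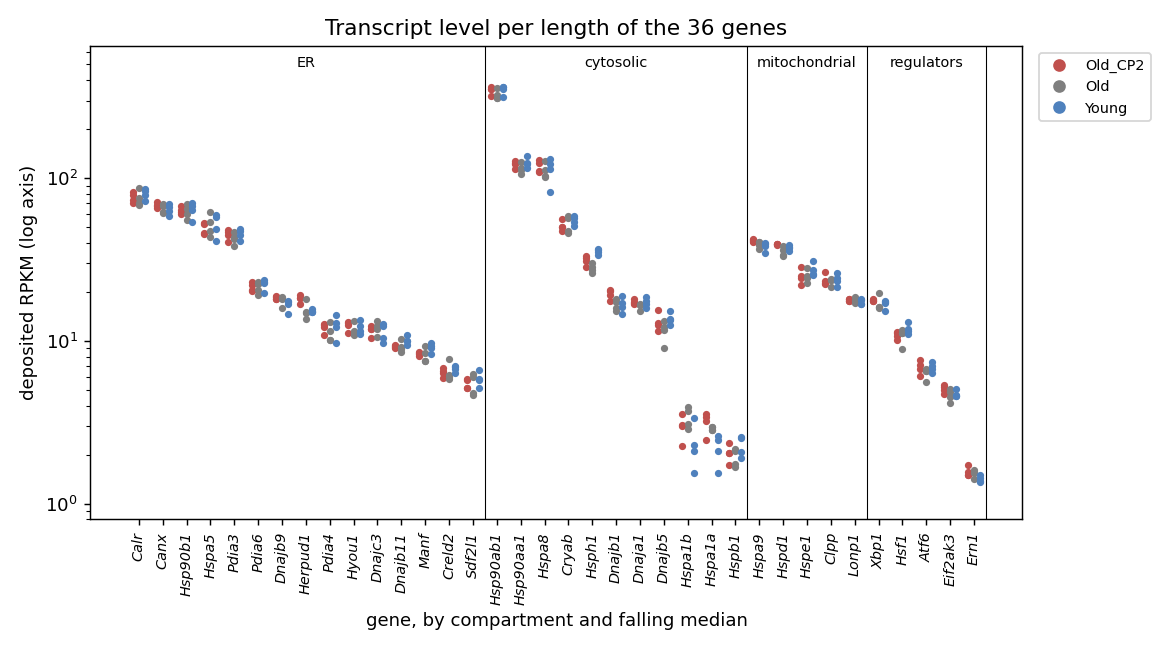
Deposited RPKM of each of the 36 genes (log axis), by compartment and falling median, with 1 point per library in Old_CP2 (red), Old (grey) and Young (blue). Hsp90ab1 is highest at a median of 353 RPKM and Ern1 lowest at 1.502 RPKM, and for nearly every gene the points of the groups overlap.

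None of the 36 genes passed the test between Old_CP2 and Old. The test was edgeR's quasi-likelihood test over all 12 libraries, with p-values adjusted by Benjamini and Hochberg over all tested genes. Of the 36, edgeR called 0 at an adjusted p under 0.05, DESeq2 called 0, and 2 had an unadjusted p under 0.05 (Herpud1 and Hspd1), against 0.0443% of all 22553 tested genes called (0.0266% higher and 0.0177% lower) and 6.31% with an unadjusted p under 0.05. The fold changes of Old_CP2 over Old had a median of 0.0076 on the log2 scale, against 0.0017 over all tested genes, and 19 were above and 17 below 0. The log2 fold changes of 35 of the 36 lay within 0.2 of 0, the exception being Hspa1b. The 95% intervals reached at most 0.23 from 0 for the sensors, 0.25 for the mitochondrial genes, 0.37 for the ER genes and 0.68 for the cytosolic genes on that scale.

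In Old against Young 1 of the 36 genes was called, lower, against 6.7% of all tested genes called, 3.96% higher and 2.74% lower. In Old_CP2 against Young the called number was likewise 1, lower, against 7.57% of all genes called, 4.63% higher and 2.94% lower. Both times it was Hsph1. The 3 comparisons share their libraries, so their values are given side by side. Median log2 fold changes of the 36 were -0.063 in Old over Young and -0.069 in Old_CP2 over Young, against -0.0034 and -0.0076 over all tested genes. The numbers with an unadjusted p under 0.05 were 6 and 8, against 21.4% and 23.2% of all genes. Without overlap of the 4 and 4 libraries were 2 of the 36 in Old against Young (Hspa1a higher, Hsph1 lower), against 13.3% of all genes, and 5 in Old_CP2 against Young (Herpud1 higher; Hsph1, Dnajb11, Manf and Hsf1 lower), against 15.5% of all genes.

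**Figure D2:**
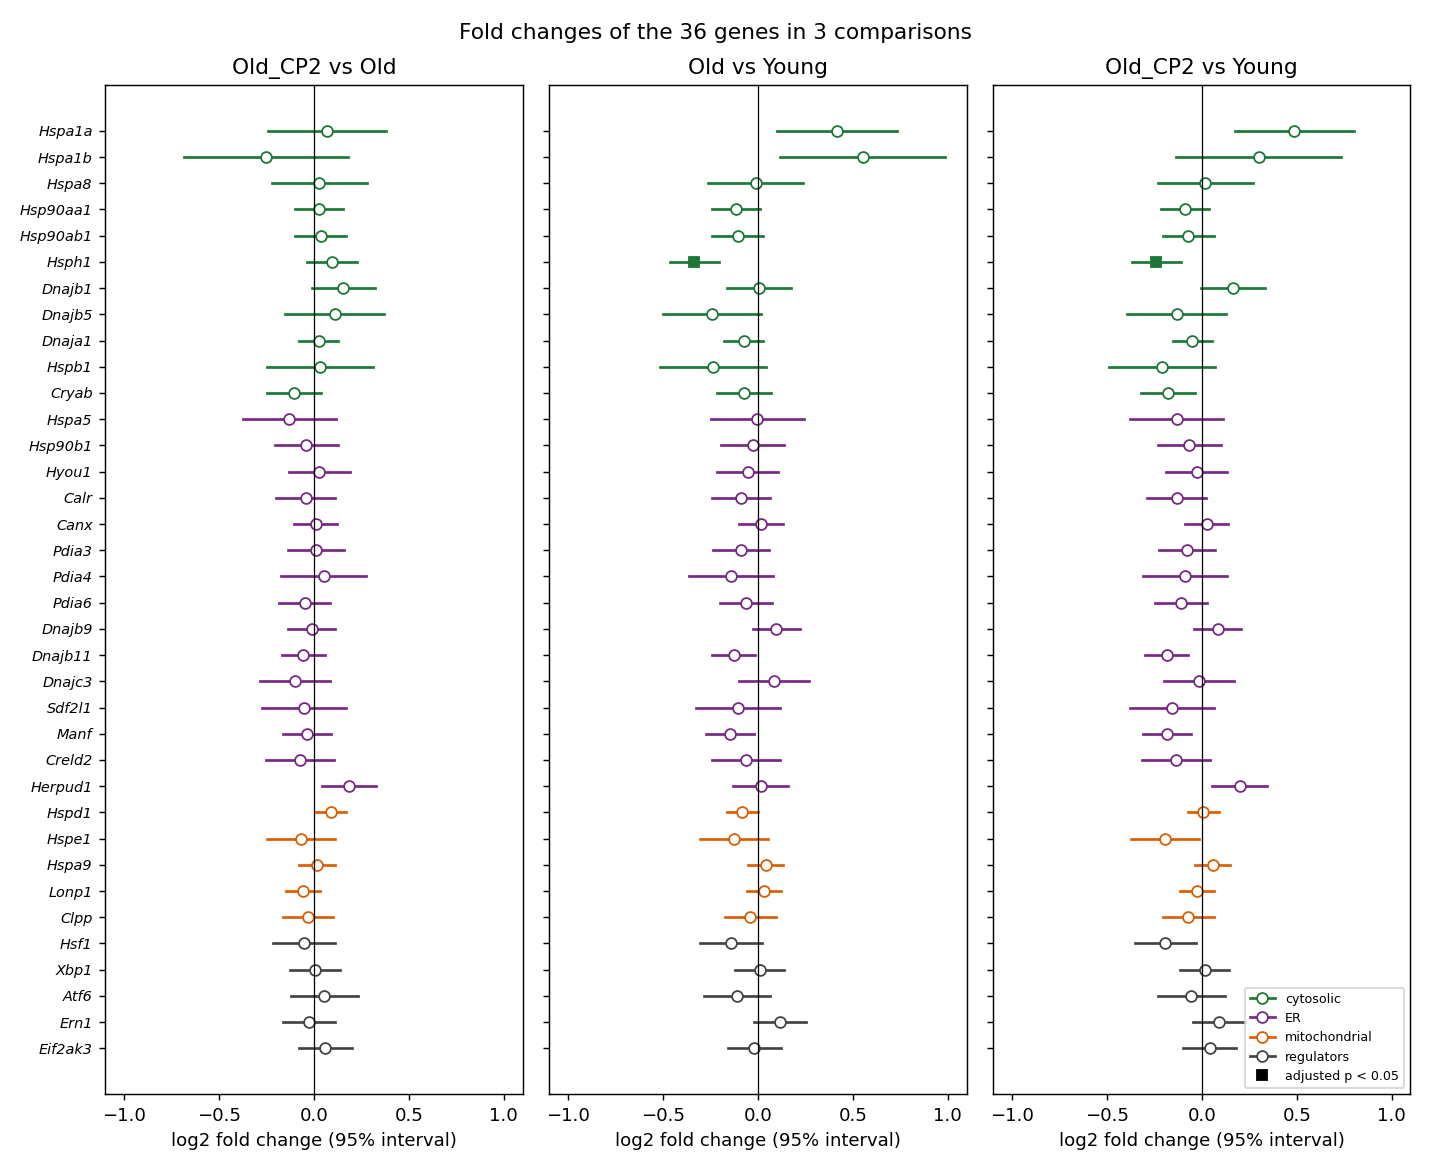
Log2 fold changes with 95% intervals for the 36 genes in Old_CP2 over Old, Old over Young and Old_CP2 over Young, coloured by compartment, with filled squares at an adjusted p under 0.05. Hsph1 is the filled square in the middle and right panels, at -0.33 and -0.24, and the left panel has none.

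Hsph1 (ENSMUSG00000029657, chromosome 5, 149614287 to 149636376, mm10, minus strand) encodes HSP110, the nucleotide exchange factor that releases clients from HSP70 and takes part in the disaggregation of protein. Its values, in order of replicate number, were 259.5, 269, 276 and 232 CPM in Old_CP2, 221, 245, 250.5 and 255 CPM in Old, and 296, 317, 311 and 301 CPM in Young. All 8 old libraries were below all 4 Young libraries, and the ranges of Old_CP2 and Old overlapped. Hsph1 fell to 243 ± 15.2 CPM in Old, against 306 ± 9.45 CPM in Young (mean and SD, n = 4), a log2 change of -0.33 ± 0.0602 SE (edgeR adjusted p = 0.00727). It averaged 259 ± 19.3 CPM in Old_CP2 (-0.24 ± 0.0601 SE against Young, edgeR adjusted p = 0.0299), and between Old_CP2 and Old the change was 0.096 with a 95% interval of -0.034 to 0.23 (adjusted p = 0.831). Choroid plexus markers were likewise lower in all 8 old libraries than in any Young library. With their level as a covariate the Old over Young change was -0.27 (adjusted p = 0.0883) and the Old_CP2 over Young change -0.17 (0.271), and neither was called. Over all genes the covariate lowered the calls from 1511 to 232 and from 1707 to 275. Because these markers separate Young from both old groups, a call lost with the covariate, here or below, cannot show what part they had. Without the 4 old libraries lowest in these markers the 2 changes were -0.29 (adjusted p = 0.0214) and -0.16 (0.116), and the first was called. Left out were Old 7, Old 9, Old_CP2 11 and Old_CP2 15, so only Old 8, Old 10, Old_CP2 12 and Old_CP2 13 stood against the Young libraries. Over all genes this lowered the calls from 1511 to 514 and from 1707 to 709. A call lost this way, here or below, cannot be told apart from the effect of fewer libraries. The Old over Young call held without each library in turn, with adjusted p from 0.00332 to 0.0223, while the Old_CP2 over Young call ended without Old_CP2 11 (0.0776), Old_CP2 12 (0.0517), Old_CP2 15 (0.0590), Young 3 (0.0662), Young 4 (0.0702) or Young 5 (0.0577). The part of the midbrain, hindbrain, striatum and red blood cell markers in the result was not tested, and a lower share of cells with much Hsph1 RNA cannot be told apart from less of it per cell.

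The stress-inducible HSP70 genes Hspa1a and Hspa1b lie near each other on chromosome 17 (34969190 to 34972156 and 34956436 to 34959238, mm10), and 49.7% of the 101-base windows of Hspa1b also occur in Hspa1a, so their reads can be split between them. The exons of Hspa1a also overlap Gm20481 on the opposite strand over 564 bases, and the kit does not mark strand. Hspa1a had 11.96, 12.5, 11.3 and 8.53 CPM in Old_CP2, 10.1, 11.2, 10.96 and 10.0 CPM in Old, and 5.75, 8.92, 9.40 and 7.55 CPM in Young. All Old libraries were above all Young libraries, and so were the Old_CP2 libraries apart from replicate 15. Averages were 11.1 ± 1.76 CPM in Old_CP2, 10.6 ± 0.617 CPM in Old and 7.90 ± 1.64 CPM in Young (SD, n = 4 each), with log2 changes of 0.069 for Old_CP2 over Old (edgeR adjusted p = 0.949), 0.42 for Old over Young (0.110) and 0.49 for Old_CP2 over Young (0.0607). Hspa1b had 10.1, 11.9, 9.99 and 7.40 CPM in Old_CP2, 12.4, 14.0, 10.1 and 10.4 CPM in Old, and 5.40, 7.28, 11.5 and 7.81 CPM in Young. Young 4 lay within the range of the old groups and the other Young libraries below all Old libraries, with a change of 0.55 ± 0.201 SE for Old over Young (adjusted p = 0.124). Counts summed over both genes, an added measure, gave 20.9 ± 3.56 CPM in Old_CP2, 22.3 ± 2.2 CPM in Old and 15.9 ± 4.00 CPM in Young, and 0.49 ± 0.163 SE for Old over Young (adjusted p = 0.0942). DESeq2 called Hspa1a (adjusted p = 0.0451) and Hspa1b (0.0454) in Old over Young and Hspa1a (0.0135) in Old_CP2 over Young, and edgeR called Hspa1b in Old over Young (0.0313) and Hspa1a in Old_CP2 over Young (0.0497) without Young 4, and Hspa1a in Old_CP2 over Young (0.0210) without Old_CP2 15.

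The HSP40 gene Dnajb1, the co-chaperone that delivers clients to inducible HSP70, had 55.1, 54.5, 51.3 and 46.5 CPM in Old_CP2, 41.6, 46.3, 49.3 and 49.0 CPM in Old, and 41.3, 45.0, 47.1 and 52.0 CPM in Young. The 3 ranges overlapped, with 3 of 4 Old_CP2 libraries above every Old library (change 0.16, 95% interval -0.013 to 0.32, adjusted p = 0.800). The small heat shock protein gene Cryab, abundant in oligodendrocytes and astrocytes, had 66.1, 70.8, 70.0 and 76.8 CPM in Old_CP2, 81.6, 70.0, 70.6 and 82.97 CPM in Old, and 76.1, 78.2, 83.2 and 83.8 CPM in Young. The ranges of both old groups overlapped with that of Young, in Old_CP2 through replicate 15 alone, and the change was -0.18 for Old_CP2 over Young (adjusted p = 0.123). Summed markers of oligodendrocytes were 4559 to 6358 CPM in Old_CP2, 5101 to 7350 CPM in Old and 5579 to 6799 CPM in Young. In Old_CP2 against Young 6 of 6 of these markers had a fold change below 0, 4 with an unadjusted p under 0.05 and 2 called, and the astrocyte sums were those given above. The part of both cell types in the Cryab values was not tested. Hsp90aa1, Hsp90ab1, Hspa8, the HSP40 genes Dnaja1 and Dnajb5, and Hspb1 were not called in any comparison. Their counts are uncertain where reads also match other genes, which holds for 28.4% of the windows of Hspa8, 37.8% of Hsp90aa1, 43.9% of Hspb1 and 16.5% of Dnaja1. Between Old_CP2 and Old their changes ran from 0.024 for Dnaja1 to 0.11 for Dnajb5. Of the 11 cytosolic genes, 9 had a fold change above 0 in Old_CP2 over Old and 3 in Old over Young. Their CPM sum was 3051 ± 90.9 in Old_CP2, 2974 ± 113 in Old and 3202 ± 208 in Young (SD, n = 4 each). The group ranges of 2934 to 3153, 2878 to 3107 and 2897 to 3358 CPM overlapped.

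**Figure D3:**
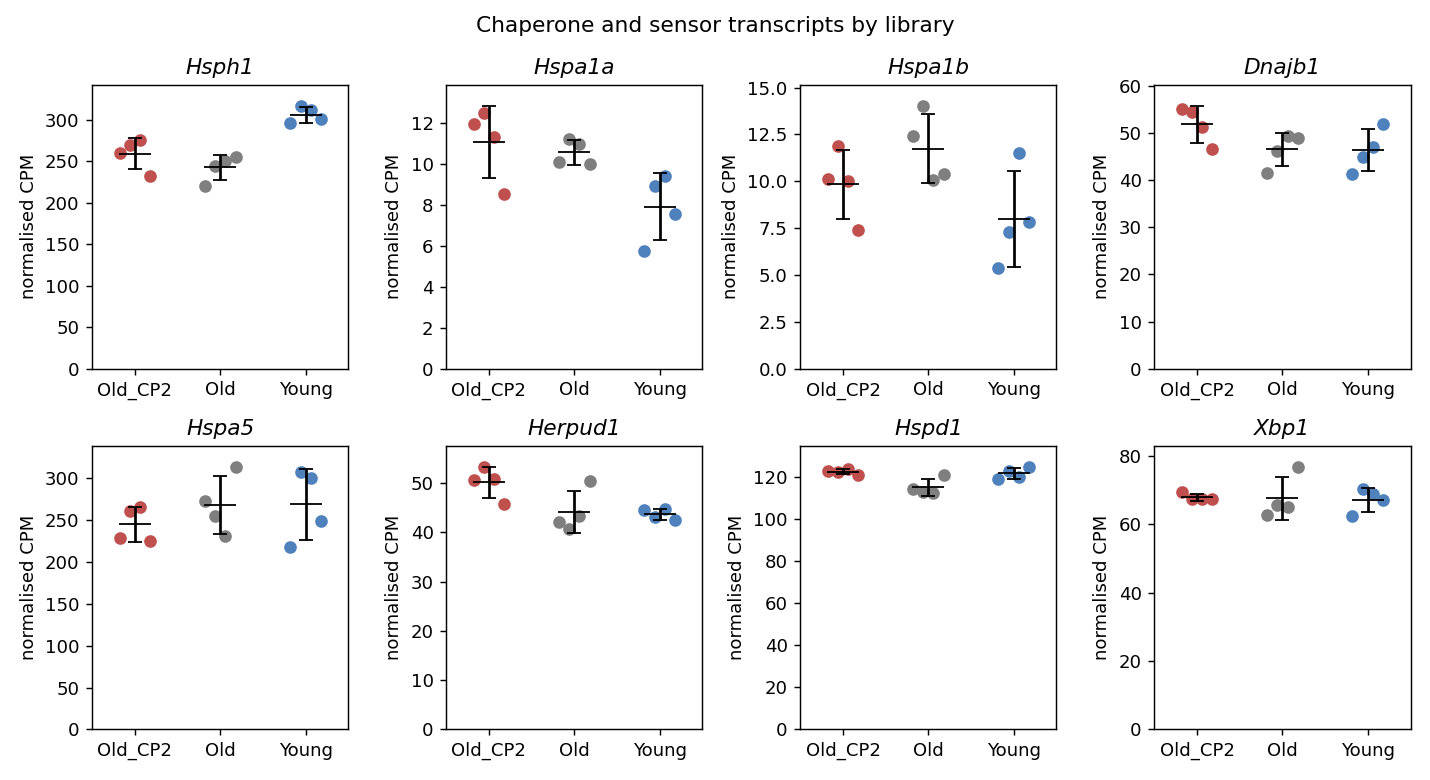
Normalised CPM of 8 genes in each library (points), with the mean and SD of each group (bars), for Old_CP2, Old and Young. The Hsph1 points of both old groups lie below those of Young, Hspa1a in Old lies above Young, and Herpud1 and Hspd1 in Old lie below Old_CP2 apart from Old 10 for Herpud1.

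None of the 15 ER genes was called in any comparison. Of all genes 0.0443% were called in Old_CP2 over Old, 6.7% in Old over Young and 7.57% in Old_CP2 over Young. The numbers of ER genes with an unadjusted p under 0.05 were 1, 2 and 3 in that order, against 6.31%, 21.4% and 23.2% of all genes. Their log2 changes ran from -0.13 to 0.18 in Old_CP2 over Old, from -0.15 to 0.097 in Old over Young and from -0.19 to 0.20 in Old_CP2 over Young, with 10, 11 and 12 of the 15 below 0. Hspa5, the HSP70 of the ER, had 228, 261, 265 and 225 CPM in Old_CP2, 272, 254, 231 and 313 CPM in Old, and 218, 307, 300.3 and 248.7 CPM in Young. The ranges of the groups overlapped, and the changes were -0.13 ± 0.114 SE for Old_CP2 over Old and -0.0038 ± 0.114 SE for Old over Young. The 95% interval for Old_CP2 over Old was -0.37 to 0.12.

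Herpud1, which brings ubiquitin ligases together for ER-associated degradation and is an early target of the stress response, had 50.6, 53.3, 50.9 and 45.7 CPM in Old_CP2, 42.2, 40.6, 43.3 and 50.3 CPM in Old, and 44.4, 43.1, 44.8 and 42.5 CPM in Young. The Old_CP2 libraries lay above all Young libraries and above 3 of 4 Old libraries, Old 10 being within their range. The change was 0.18 ± 0.0663 SE for Old_CP2 over Old (unadjusted p = 0.0152, edgeR adjusted p = 0.692) and 0.20 ± 0.0663 SE for Old_CP2 over Young (adjusted p = 0.0891), and neither passed. Over the alternatives the first ran from 0.14 to 0.25 with adjusted p of at least 0.225, while the second was called by DESeq2 (0.0450), with those 2 groups alone in the fit (0.0442), without Old_CP2 15 (0.0431) and without Old 10 (0.0338).

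Dnajb11, the ER HSP40 that works with BiP, had 34.6, 36.4, 35.1 and 35.0 CPM in Old_CP2, 35.5, 36.9, 34.8 and 39.7 CPM in Old, and 38.4, 43.2, 39.8 and 39.0 CPM in Young. All Old_CP2 values were below all Young values, with a change of -0.18 ± 0.0527 SE (adjusted p = 0.0506), and -0.057 for Old_CP2 over Old (adjusted p = 0.890). It was called for Old_CP2 over Young by DESeq2 (0.0160), with RLE factors (0.0499), with those 2 groups alone (0.0492) and without Old 10 (0.0421). Manf, a secreted ER-resident factor that protects neurons, had 35.7, 33.9, 34.6 and 34.6 CPM in Old_CP2, 35.5, 34.1, 33.2 and 39.5 CPM in Old, and 36.8, 42.1, 40.1 and 38.8 CPM in Young. Here too Old_CP2 lay below Young without overlap (-0.19 ± 0.0588 SE, adjusted p = 0.0746), and DESeq2 (0.0353) and the fit without Old 10 (0.0482) called it. Dnajc3, the ER co-chaperone and inhibitor of PERK, had 64.0, 72.9, 75.9 and 71.6 CPM in Old_CP2, 76.6, 78.5, 68.3 and 82.0 CPM in Old, and 62.8, 80.9, 78.0 and 65.7 CPM in Young. Its ranges overlapped in all comparisons, with changes of -0.10, 0.087 and -0.015 for Old_CP2 over Old, Old over Young and Old_CP2 over Young.

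For Old_CP2 over Old the remaining ER genes were close to 0. The change was -0.041 for Hsp90b1, 0.028 for the BiP exchange factor gene Hyou1, -0.044 for Calr and 0.0090 for Canx. It was 0.012, 0.052 and -0.048 for the disulfide isomerase genes Pdia3, Pdia4 and Pdia6, and -0.013 for Dnajb9, the ER HSP40 induced through IRE1. The low-level genes Sdf2l1 and Creld2, both ER folding factors, gave -0.052 and -0.073. The CPM sum of the 15 ER genes was 1834 ± 94.0 in Old_CP2, 1872 ± 124 in Old and 1914 ± 167 in Young (SD, n = 4 each), and the group ranges of 1753 to 1938, 1724 to 2022 and 1713 to 2082 CPM overlapped throughout.

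Among the 5 mitochondrial genes 0 were called in any comparison. The shares of all genes called were 0.0443% in Old_CP2 over Old, 6.7% in Old over Young and 7.57% in Old_CP2 over Young. Hspd1 (chromosome 1, 55077835 to 55088243), the HSP60 chaperonin of the matrix, had 123, 122, 124 and 121 CPM in Old_CP2, 114, 113, 112 and 121 CPM in Old, and 119, 123, 119.9 and 125 CPM in Young. All 4 Old_CP2 libraries were above all 4 Old libraries, Old 10 at 120.7 CPM just below the lowest of them at 120.9 CPM, and Hspd1 was the 1 gene of the 36 whose groups did not overlap in this comparison, against 3.44% of all tested genes. Its change was 0.090 ± 0.0367 SE (unadjusted p = 0.0293, edgeR adjusted p = 0.730), and Young values covered the range of Old_CP2 (0.0086 for Old_CP2 over Young). Some windows of Hspd1, 23.6%, also occur in other genes, mainly a pseudogene. The exons of Hspd1 and its partner Hspe1 overlap by 112 bases on opposite strands, and the kit does not mark strand.

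Hspe1, the HSP10 lid of the chaperonin, had 43.6, 38.7, 42.5 and 48.6 CPM in Old_CP2, 49.5, 47.4, 45.0 and 40.0 CPM in Old, and 50.3, 46.6, 46.1 and 55.3 CPM in Young. Its ranges overlapped in all comparisons and its changes were -0.068 for Old_CP2 over Old and -0.19 for Old_CP2 over Young (adjusted p = 0.182). The mitochondrial HSP70 gene Hspa9 had 187, 194, 192 and 192 CPM in Old_CP2, 191, 194, 180.0 and 192 CPM in Old, and 172, 192, 183 and 189 CPM in Young. The protease gene Lonp1, whose product removes damaged matrix protein, had 61.5, 64.0, 63.7 and 60.3 CPM in Old_CP2, 63.8, 66.8, 63.5 and 65.8 CPM in Old, and 66.9, 61.7, 61.2 and 64.0 CPM in Young. Both genes overlapped between all groups, with Old_CP2 over Old changes of 0.016 and -0.059 and 95% intervals of -0.077 to 0.11 and -0.15 to 0.031. For Clpp, the other matrix protease, the value was -0.032 (95% interval -0.16 to 0.10). The CPM sum of the 5 genes was 453 ± 5.13 in Old_CP2, 449 ± 8.48 in Old and 454 ± 12.6 in Young.

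The 5 sensors and transcription factors were not called in any comparison. Calls over all genes were 0.0443% in Old_CP2 over Old, 6.7% in Old over Young and 7.57% in Old_CP2 over Young. Hsf1, the heat shock factor, had 25.5, 24.3, 27.1 and 26.2 CPM in Old_CP2, 28.4, 23.1, 28.2 and 27.1 CPM in Old, and 33.1, 28.6, 29.0 and 27.1 CPM in Young. Old_CP2 lay just under the lowest Young value of 27.09 CPM, with its highest at 27.08 CPM, and the change was -0.19 ± 0.0755 SE (adjusted p = 0.147). Xbp1, the transcription factor of the IRE1 branch, had 69.5, 67.5, 67.4 and 67.5 CPM in Old_CP2, 62.7, 65.8, 65.2 and 76.9 CPM in Old, and 62.5, 70.5, 68.9 and 67.0 CPM in Young. Old 10 stood above all other libraries, the rest overlapped, and the change between Old_CP2 and Old was 0.0062 with a 95% interval of -0.12 to 0.14. A gene count does not separate the spliced form of Xbp1, which is the active one, from the unspliced form.

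Atf6, the ER membrane transcription factor, had 73.6, 83.1, 77.6 and 65.6 CPM in Old_CP2, 61.7, 78.9, 75.8 and 72.5 CPM in Old, and 73.4, 76.2, 78.9 and 83.1 CPM in Young. Ern1, which encodes IRE1, had 16.6, 14.6, 15.1 and 14.2 CPM in Old_CP2, 15.3, 14.8, 15.8 and 15.7 CPM in Old, and 15.3, 14.4, 13.5 and 13.6 CPM in Young. Eif2ak3, which encodes PERK, had 32.2, 33.4, 34.6 and 29.9 CPM in Old_CP2, 31.8, 31.5, 28.3 and 33.0 CPM in Old, and 34.7, 30.7, 30.6 and 30.4 CPM in Young. The ranges of each overlapped between all groups, and Old_CP2 over Old changes were 0.054, -0.025 and 0.061 with 95% intervals of -0.12 to 0.23, -0.16 to 0.11 and -0.079 to 0.20. These sensors are regulated mainly on the protein, which was not measured.

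Further genes of the same pathways, from lists that hold none of the 36, were read beside them. Of 25 cytosolic co-chaperones and HSF1 targets, 1 rose and 1 fell in Old against Young, where 6.7% of all genes were called, and 0 were called in the other comparisons. Hspb8, a small heat shock protein of chaperone-assisted autophagy, had 9.08, 10.8, 10.7 and 15.7 CPM in Old_CP2, 21.7, 14.6, 12.2 and 10.0 CPM in Old, and 7.09, 8.25, 9.08 and 7.13 CPM in Young. All Old libraries were above all Young libraries, Old 7 farthest (0.89 ± 0.217 SE, adjusted p = 0.0292), and the call ended without Old 7 (0.0658), Old 8 (0.0535), Young 1 (0.0721), Young 3 (0.0574) or Young 5 (0.0746), and with the choroid plexus covariate (0.203) or without the 4 libraries lowest in it (0.0615). Hsbp1, a binding partner of HSF1, fell (-0.17 ± 0.0471 SE, adjusted p = 0.0495), a call that ended without any single library other than Young 3 (adjusted p from 0.0562 to 0.142) and under 4 other alternatives (up to 0.259). The 14 genes of the chaperonin TRiC and prefoldin, 19 genes of ER-associated degradation and 21 of mitochondrial folding and proteolysis had 0 calls in all 3 comparisons. Of all genes 0.0443% were called in Old_CP2 against Old, 6.7% in Old against Young and 7.57% in Old_CP2 against Young. Lists this short would hold few calls at those shares.

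Of 20 further ER folding genes 2 fell in Old against Young, and 1 rose and 1 fell in Old_CP2 against Young, beside 6.7% and 7.57% of all genes called. Pdia5, a disulfide isomerase, was at 1.12 to 1.80 CPM in Old and 2.01 to 2.30 CPM in Young (-0.55 ± 0.137 SE, adjusted p = 0.0322) and at 1.41 to 1.65 CPM in Old_CP2 (-0.51 ± 0.137 SE against Young, 0.0385). Ero1lb, an oxidase that drives disulfide bonds, fell in Old against Young (-0.33 ± 0.0795 SE, adjusted p = 0.0294). Dnajc10, an ER reductase, rose in Old_CP2 against Young (0.19 ± 0.0495 SE, adjusted p = 0.0359), and Ssr2, of the translocon, fell (-0.20 ± 0.0459 SE, 0.0224), the 1 call among 21 translocon and secretory genes. Each of these calls ended without single libraries. For Pdia5 in Old over Young these were Old 7, Old 8, Old 10 and each Young library (adjusted p from 0.0555 to 0.0823), and in Old_CP2 over Young Old_CP2 11, 12 and 15 and each Young library (0.0613 to 0.105). For Ero1lb they were Old 7, Old 8, Old 9, Young 1 and Young 4 (0.0578 to 0.0735), for Dnajc10 Old_CP2 12, 13 and 15 and each Young library (0.0507 to 0.0862), and for Ssr2 Old_CP2 11, 12 and 13 and Young 1, 4 and 5 (0.0590 to 0.0718). With the choroid plexus covariate Pdia5 (0.0812 and 0.0948), Ero1lb (0.245) and Ssr2 (0.0948) were not called. The same held for Pdia5 (0.061 and 0.147), Ero1lb (0.183) and Ssr2 (0.0552) without the 4 libraries lowest in those markers. The Pdia5 calls also ended with no filter (0.0535 and 0.0699), and that in Old over Young with 2 groups in the fit (0.0692).

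Of 23 genes of the PERK and ATF4 branch, 1 rose in Old against Young and 1 in Old_CP2 against Young, beside 6.7% and 7.57% of all genes called. Ppp1r15a, the phosphatase subunit GADD34 that restores translation, was at 12.02 to 14.5 CPM in Old and 9.80 to 10.9 CPM in Young (0.31 ± 0.0791 SE, adjusted p = 0.0366). The call ended without Old 7, Old 9 or any Young library (adjusted p from 0.0608 to 0.0875). It also ended with the choroid plexus covariate (0.257), without the 4 libraries lowest in those markers (0.224) and with 2 groups in the fit (0.0501). Atf3, a transcription factor of stress and of neuronal activity, had 1.77, 2.19, 1.32 and 0.979 CPM in Old_CP2, 0.907, 0.912, 0.868 and 0.680 CPM in Old, and 0.194, 0.686, 0.754 and 0.658 CPM in Young. All Old_CP2 libraries were above all Young and above all Old libraries. The log2 change was 1.45 ± 0.335 SE against Young (adjusted p = 0.0216) and 0.90 against Old (0.695). The call against Young ended without Old_CP2 11 (0.0619) or Old_CP2 12 (0.0637). It also ended with the choroid plexus covariate (0.102) and without the 4 libraries lowest in those markers (0.0596). The 9 immediate early genes, which neuronal activity induces, summed to 412 to 883 CPM in Old_CP2, 232 to 658 CPM in Old and 198 to 477 CPM in Young, highest in Old_CP2 11 and Old_CP2 12, and their part in the Atf3 values was not tested. In Old_CP2 against Young 9 of 9 had a fold change above 0 and an unadjusted p under 0.05, with a median log2 change of 1.09 and 0 called. Between Old_CP2 and Old the branch had 0 calls, and Ddit3, the factor CHOP of prolonged ER stress, was at 19.6 to 23.2 CPM in Old_CP2, 20.7 to 23.1 CPM in Old and 20.5 to 22.3 CPM in Young, chosen here after its values were seen.

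The cold-inducible RNA-binding proteins respond to temperature in the opposite direction to heat shock proteins, and were read for that reason. Rbm3 had 55.9, 73.4, 60.1 and 72.9 CPM in Old_CP2, 84.6, 89.9, 71.1 and 63.9 CPM in Old, and 51.9, 47.9, 51.2 and 54.8 CPM in Young. All old libraries were above all Young libraries, and Old and Old_CP2 overlapped. Rbm3 rose to 77.4 ± 11.9 CPM in Old, against 51.4 ± 2.84 CPM in Young (mean and SD, n = 4), a log2 change of 0.59 ± 0.110 SE (edgeR adjusted p = 0.00869), and the call held under all alternatives tried. In Old_CP2 over Young the change was 0.35 (adjusted p = 0.0712) and in Old_CP2 over Old -0.24 (0.784), and the first of these was called without Old 10 (0.0456), with those 2 groups alone in the fit (0.0429) and by DESeq2 (0.0231). Its homologue Cirbp had 44.9, 48.8, 50.1 and 56.7 CPM in Old_CP2, 55.4, 58.7, 52.1 and 53.7 CPM in Old, and 51.0, 44.8, 42.9 and 48.2 CPM in Young. Cirbp in Old lay above Young without overlap, at 0.23 ± 0.0729 SE, and was not called (adjusted p = 0.0748), though DESeq2 (0.0299) and the fit without Old_CP2 15 (0.0345) called it. Body or brain temperature is not among the labels.

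**Figure D4:**
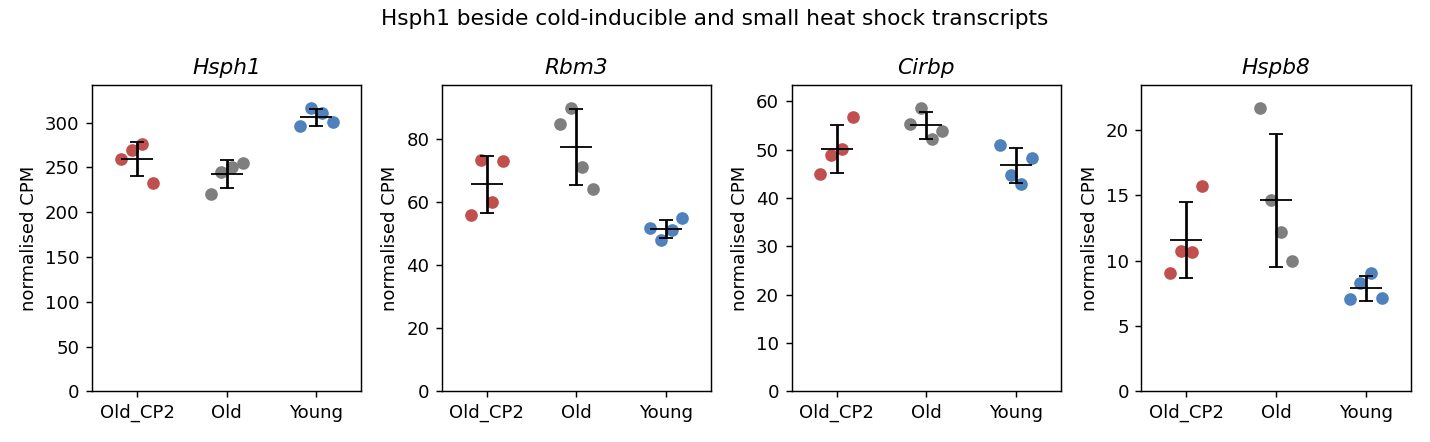
Normalised CPM in each library (points), with the mean and SD of each group (bars), of Hsph1, the cold-inducible genes Rbm3 and Cirbp and the small heat shock gene Hspb8. In Old against Young Hsph1 lies lower and the other 3 higher with no overlap, and Cirbp was not called.

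The median coefficient of variation of the 36 genes within a group was 6.62% in Old_CP2, 7.61% in Old and 6.69% in Young. It was highest for Hspa1b in Old_CP2 (18.7%) and in Young (31.9%) and for Dnajb5 in Old (17.8%). Hspd1 varied least in Old_CP2 (1.008%) and in Young (2.18%), and Lonp1 in Old (2.42%).

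Inside each group, single libraries stood lowest or highest for many of the 15 ER genes. Old 9 was the lowest Old library for 13 of the 15 ER genes and Old 10 the highest for 13, while these libraries were lowest for 23.4% and highest for 26.1% of all tested genes. Young 1 was the lowest Young library for 12 of the 15 ER genes and for 10 of the 11 cytosolic genes (30.1% of all genes), and Young 3 was the highest for 11 of the 15 ER genes (24.0% of all genes). Old_CP2 13 was highest for 8 ER genes (21.3% of all genes) and Old_CP2 15 lowest for 8 (31.9% of all genes). For Hspa5 the span inside Young, 218 to 307 CPM, was larger than the difference between any pair of group means. Of the 5 mitochondrial genes, Old 9 was lowest for 3 and Old 10 highest for 1 and lowest for 1, and Young 5 was highest for 3.

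Libraries that stood apart in ER genes differed in other measures too. Choroid plexus markers summed to 303 CPM in Old 9 and 1567 CPM in Old 10, though to 1844 CPM in Old 8, and to 2073 CPM in Young 1 and 2300 CPM in Young 3, though to 3302 CPM in Young 4. Depth was 81409150 counts in Old 9 and 94741585 in Old 10, and 77469073 in Young 1 and 91549618 in Young 3, while Old 8, the shallowest library at 70548781 counts, was lowest for 2 of the 15 ER genes. Of the further lists, Old 9 was lowest for 12 of 21 translocon and secretory genes, 7 of 20 ER folding genes and 7 of 19 degradation genes, and Old 10 highest for 6, 9 and 12 of them. Young 1 was lowest for 9, 6 and 9 of them (30.1% of all genes). Young 3 was highest for 6, 9 and 8 and lowest for 8, 2 and 3 (24.0% and 24.3% of all genes). Old_CP2 13 was highest for 4, 7 and 5 (21.3% of all genes). Old_CP2 15 was lowest for 5, 6 and 8 and highest for 9, 6 and 5 (31.9% and 32.9% of all genes). In these libraries the further lists thus did not all follow the 15 ER genes. Beyond the ER Young 1 was lowest for 16 of 25 cytosolic co-chaperones and HSF1 targets and 9 of 14 TRiC and prefoldin genes. For mitochondrial folding and proteolysis Young 1 was lowest for 6 of 21 genes. The part of these measures in the shared variation was not tested.

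**Figure D5:**
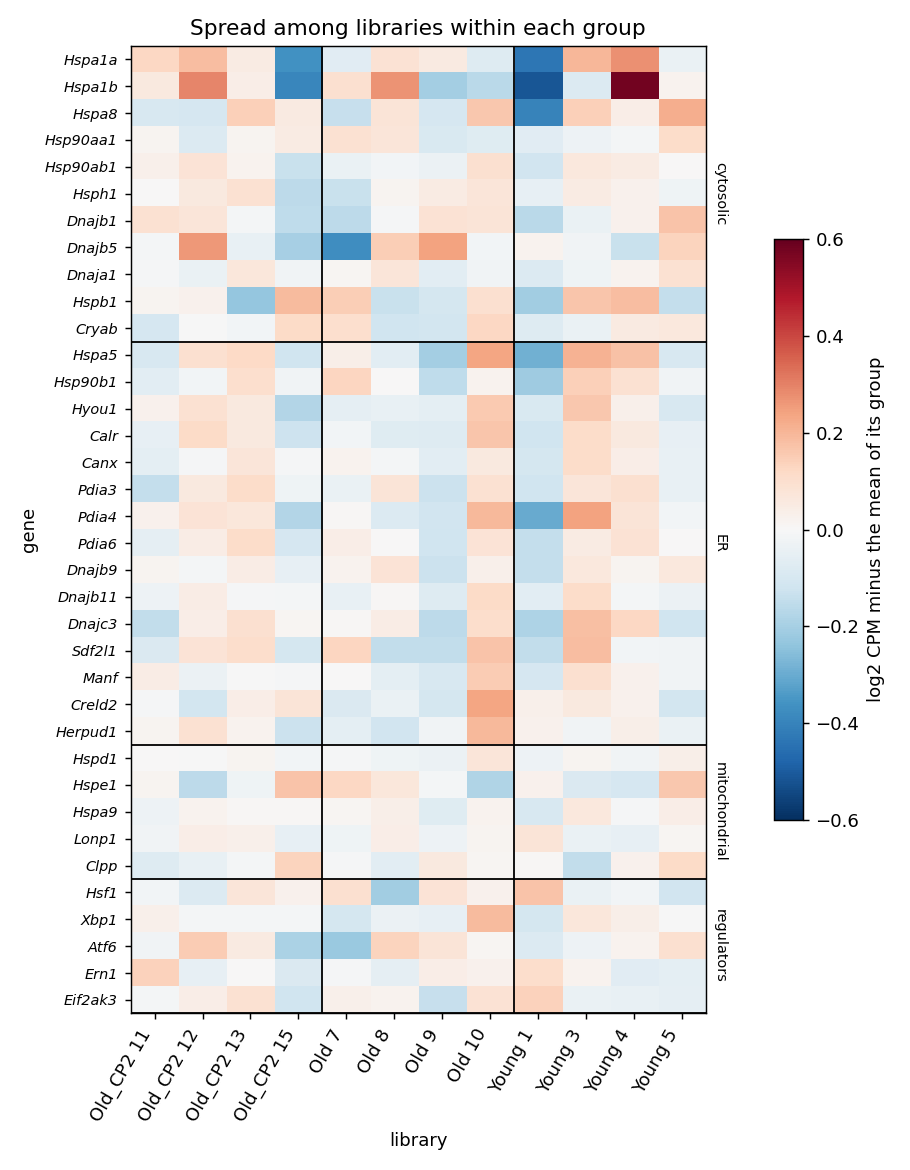
Log2 CPM of each gene in each library minus the mean of its group, as colour, for Old_CP2, Old and Young with lines between groups and between compartments. The ER rows of Old 9 and Young 1 are mostly blue (low) and those of Old 10 and Young 3 mostly red (high), and the largest deviations are those of Hspa1b in Young, from -0.51 to 0.58.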

How the data were processed

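Brain RNA from 12 mouse libraries was prepared with a TruSeq RNA v2 kit, which does not mark strand, and read as 101-base pairs, per the labels' protocols. The submitters' processing notes name bcl2fastq, TopHat, Subread, featureCounts and the build mm10, with versions not given in the sources used here. Raw counts per gene and RPKM values made by the authors stand side by side in 1 deposited table. RPKM served to compare levels between genes, and counts served for every test. Genes with low counts were removed with filterByExpr, libraries were scaled by TMM, and edgeR 4.0.16 (R 4.3.3, limma 3.58.1) fitted the quasi-likelihood model to all 12 libraries with group as the term. Genes with an adjusted p under 0.05 were called. DESeq2 1.42.0, RLE factors, no filter, pairs of groups, a choroid plexus covariate, the set without the 4 libraries lowest in those markers and leaving out each library were alternatives, and counts summed over Hspa1a and Hspa1b were added after seeing the data. The 36 genes and the gene lists were chosen with earlier results of these data known. Given in every library were each called gene of the 36, the 2 of smallest unadjusted p per compartment and comparison, and Hspa1a, Hspa1b, Hspa5, Hspd1, Hsf1, Xbp1, Atf6, Ern1 and Eif2ak3. Of the further lists the called genes were named. On simulated data for Old_CP2 against Old, a 1.15-fold change was found in 0% and a 1.25-fold change in 32% of the genes given it. A 1.5-fold change was found in 62% and a 2-fold change in 88%. Genes given a change were drawn at random from all but the lowest levels, so these are not rates for the 36 genes. None of the 18 pairs of libraries within groups agreed within sampling noise. Promoter sequences are those of RefSeq on GRCm38.p6.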

Additional observations from a re-analysis of the deposited data

Results flagged for a closer look

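In 120 groups of 4 values tested, chance alone gives a library far from the others in about 1 in 20, and 5 were found. Hsp90ab1 was at 1282 CPM in Old 10, against 1167 to 1185 CPM in the other Old libraries. Hyou1 was at 115 CPM in Old 10, against 99.4 to 100.2 CPM in the others. Xbp1 was at 69.5 CPM in Old_CP2 11, against 67.4 to 67.5 CPM in the other Old_CP2 libraries. Eif2ak3 was at 34.7 CPM in Young 1, against 30.4 to 30.7 CPM in the other Young libraries. The sum of the 5 mitochondrial genes was 436 CPM in Old 9, against 453 to 454 CPM in the other Old libraries.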

How the results depend on the processing

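No paired analysis was possible because the groups share no replicate number. The number of the 36 genes called in Old_CP2 against Young was 1 in the reported fit, 2 with RLE factors, 5 with DESeq2, 3 with 2 groups in the fit, 0 with the choroid plexus covariate and 0 without the 4 libraries lowest in it, and 0 to 4 without single libraries. In Old against Young it was 1, against 3 with DESeq2 and 0 with the covariate, and 1 to 2 without single libraries. In Old_CP2 against Old it was 0 throughout. Of all genes, 10 were called in Old_CP2 against Old, 17 with no filter, 108 with DESeq2, 21 without the 4 libraries and 6 to 38 without single libraries, the fewest without Old 9. In Old against Young they were 1511, 2479 with DESeq2, 232 with the covariate, 514 without the 4 libraries and 855 to 1706 without single libraries, the fewest without Young 4. In Old_CP2 against Young they were 1707, 2647 with DESeq2, 275 with the covariate, 709 without the 4 libraries and 827 to 1930 without single libraries, the fewest without Old_CP2 11. For the cytosolic genes in Old over Young the log2 difference was -0.015 with equal weight per gene and -0.11 from the summed CPM. For the mitochondrial genes equal weight gave -0.011 in Old_CP2 over Old (0.013 from the sums) and -0.044 in Old_CP2 over Young (-0.0027 from the sums).

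Small changes turned sign. Of 1299 values under alternatives, 16 reversed without a library left out and 31 with one left out, all from reported changes of at most 0.13. Hspa5 in Old over Young was 0.0022 with no filter, 0.0023 with 2 groups, 0.16 with the covariate and 0.084 without the 4 libraries, and in Old_CP2 over Young 0.061 with the covariate. With the covariate and without the 4 libraries Eif2ak3 in Old over Young was 0.065 and 0.034, and in Old_CP2 over Young Dnajc3 was 0.13 and 0.058, Lonp1 0.019 and 0.016, and Atf6 0.047 and 0.051. Without the 4 libraries Hsf1 in Old_CP2 over Old was 0.038 and Xbp1 -0.077, and Hspa1a with Hspa1b counts added was -0.091. Without single libraries the Old_CP2 over Old changes ran from -0.031 to 0.068 for Xbp1, -0.076 to 0.0047 for Ern1, -0.017 to 0.11 for Atf6, -0.010 to 0.025 for Hspa9 and -0.072 to 0.011 for Manf. In Old over Young they ran from -0.049 to 0.049 for Xbp1, -0.089 to 0.075 for Hspa5, -0.041 to 0.073 for Dnajb1, -0.040 to 0.033 for Eif2ak3 and -0.047 to 0.059 for Herpud1. In Old_CP2 over Young they ran from -0.017 to 0.044 for Xbp1, -0.074 to 0.052 for Dnajc3, -0.10 to 0.0098 for Atf6, -0.00085 to 0.025 for Hspd1 and -0.038 to 0.0016 for Lonp1. The cause was not tested.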
